A study of Mus musculus with 3 samples.

Results

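The myeloid C-type lectins are a family of receptors that immune cells use to recognise sugars and lipids on microbes and on damaged cells. The 10 genes described here were selected on levels measured in these libraries, and 9 of the 10 were measured among the 32285 genes counted. They are *Clec4e*, *Clec4d*, *Clec4n*, *Clec4a1*, *Clec4a2*, *Clec4a3*, *Cd209a*, *Cd209d* and *Cd209f*, and *Clec7a* was not analysed here. Skin wounds of young adult male C57BL/6J mice, an inbred strain, were collected on Days 3, 7 and 14 after injury, and the labels name no treatment other than wounding. The series text calls the injury incisional, whereas the study's methods describe excisional wounds of the back skin, cut with a biopsy punch. Each day was 1 single-cell library of cells pooled over several wounds, so a difference between days compares 2 libraries, has no replicate check and carries no test. Each captured mRNA molecule carries a unique molecular identifier (UMI), and a level in CPM is the gene's share of the UMIs of a cell class, on the counts-per-million scale. Intervals are 95% intervals for counting error only, exact Poisson for CPM, exact conditional binomial for ratios and Clopper-Pearson for shares.

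*Clec4e* (Mincle), *Clec4d* (MCL) and *Clec4n* (Dectin-2) are activating receptors that signal through the Fc receptor gamma chain, encoded by *Fcer1g*, to the kinase Syk and the adaptor Card9. *Clec4a2* (DCIR) carries an inhibitory motif that recruits phosphatases, and *Clec4a1* and *Clec4a3* are its close relatives. *Cd209a*, *Cd209d* and *Cd209f* are mouse relatives of the human dendritic cell receptor DC-SIGN and bind sugars on microbes.

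The Day 3 library held 5158 barcodes and 38133650 UMIs, the Day 7 library 22924 and 120940799, and the Day 14 library 16611 and 112713257. Of these, 62, 154 and 130 barcodes occurred in another library too. After filtering, 4379, 19646 and 13560 cells remained in 30 clusters, none of which was formed with a lectin or signalling gene described here. Classes were named from marker genes, so "macrophage-like" is an inference from transcripts. Macrophage-like cells numbered 2720, 9523 and 3256 on Days 3, 7 and 14, dendritic cell-like cells 237, 1112 and 479, and neutrophil-like cells 867, 1658 and 21. The 11 dendritic cell markers summed to 2998, 2717 and 2029 CPM in dendritic cell-like cells, against 388, 183 and 330 CPM in macrophage-like cells.

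In the mouse genome (GRCm38), 6 of the measured genes lie within 368 kb of chromosome 6, in the order *Clec4a1*, *Clec4a3*, *Clec4a2*, *Clec4n*, *Clec4d* and *Clec4e*. The 3 *Cd209* genes lie within 362 kb of chromosome 8. *Clec4d* (ENSMUSG00000030144, chr6:123262111-123275265, plus strand) and *Clec4e* (ENSMUSG00000030142, chr6:123281789-123289870, minus strand) are neighbours transcribed towards each other. *Cd209a* (ENSMUSG00000031494) is at chr8:3743397-3748984 and *Cd209d* (ENSMUSG00000031495) at chr8:3871824-3878555, both on the minus strand. The members are paralogs, but none of the 441 stretches of 60 bases in the last 500 bases of each member's longest coding transcript occurred in a transcript of another gene.

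The 250 bases before the RefSeq start of these 4 genes are shown because *Clec4d* and *Clec4e* were higher in neutrophil-like cells than in the other myeloid classes named here, and *Cd209a* and *Cd209d* in dendritic cell-like cells. The sequences are from RefSeq (GRCm38.p6), read 5′ to 3′ on the gene's strand, and capitals mark matches to a motif searched on both strands. The regions are chr6:123261857-123262106, chr6:123289872-123290121, chr8:3748985-3749234 and chr8:3878500-3878749, in the order printed.
Clec4d: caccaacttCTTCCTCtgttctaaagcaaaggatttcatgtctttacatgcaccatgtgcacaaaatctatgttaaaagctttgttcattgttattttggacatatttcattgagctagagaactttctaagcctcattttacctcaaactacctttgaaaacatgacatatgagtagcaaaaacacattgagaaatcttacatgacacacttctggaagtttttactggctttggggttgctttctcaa
Clec4e: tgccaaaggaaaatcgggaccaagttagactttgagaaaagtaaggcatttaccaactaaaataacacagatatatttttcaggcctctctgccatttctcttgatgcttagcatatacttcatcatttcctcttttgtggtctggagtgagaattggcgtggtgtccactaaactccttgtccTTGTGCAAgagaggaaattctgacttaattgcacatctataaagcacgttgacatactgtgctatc
Cd209a: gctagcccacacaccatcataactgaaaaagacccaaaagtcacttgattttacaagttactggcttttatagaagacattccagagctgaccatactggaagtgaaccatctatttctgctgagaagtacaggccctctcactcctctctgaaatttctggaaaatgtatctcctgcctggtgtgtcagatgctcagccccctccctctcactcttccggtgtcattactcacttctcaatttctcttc
Cd209d: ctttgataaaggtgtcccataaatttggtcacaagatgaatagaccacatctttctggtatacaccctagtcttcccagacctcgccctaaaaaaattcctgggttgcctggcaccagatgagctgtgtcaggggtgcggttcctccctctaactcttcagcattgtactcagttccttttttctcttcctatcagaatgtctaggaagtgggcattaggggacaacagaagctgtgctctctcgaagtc

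In *Clec4d* the capitals are a match to GAGGAAG, a form of the PU.1 motif, which 10.6% of all 32851 promoters hold. In *Clec4e* they are a match to TTGCNNAA, a form of the C/EBP motif, which 9.56% of promoters hold. The other motifs searched were CAGGAAG (ETS, in 10.8% of promoters), TGANTCA (AP-1, in 6.75%) and the NF-kB motif (in 1.41%), and none of the 4 printed sequences held them. Of the 10 listed genes, 9 had a promoter sequence, *Clec7a* included and *Clec4n* not. Of these, 2 held the PU.1 form, 1 the ETS form, 1 the C/EBP form, 1 the AP-1 form and 0 the NF-kB form. A match describes letters in this window and is not a binding site.

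The activating receptors *Clec4e* and *Clec4d* were higher in neutrophil-like than in macrophage-like or dendritic cell-like cells on every day. *Clec4e* stood at 4048 CPM (3934 to 4165), 1740 (1670 to 1812) and 1637 (1190 to 2198) in neutrophil-like cells of Days 3, 7 and 14, and the last class was 21 cells. The class lay 84.9% in cluster 14 on Day 3 and 95.1% in cluster 8 on Day 7, so its values on these days come mainly from different clusters. Within cluster 8 *Clec4e* went from 2979 to 1658 CPM, and within cluster 14 from 4187 to 2673 CPM. Between Days 3 and 7 the 8 neutrophil markers went from 50220 to 34334 CPM in this class, and the 8 fibroblast markers from 845 to 10210 CPM. Their part in the lectin levels was not tested. In macrophage-like cells *Clec4e* was at 468 CPM (456 to 480), 154 (149 to 158) and 110 (104 to 116). The macrophage-like level was thus lower at each later day, with a log2 ratio of -1.61 (-1.67 to -1.55) for Day 7 over Day 3 and -0.48 (-0.57 to -0.39) for Day 14 over Day 7. Dendritic cell-like cells held 122, 48.6 and 10.8 CPM.

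*Clec4d* took a later course in macrophage-like cells. From Day 3 through Day 7 to Day 14 it was at 315 CPM (305 to 325), 233 (227 to 238) and 87.0 (81.9 to 92.3). The log2 ratio was -0.44 (-0.50 to -0.38) for the first step and -1.42 (-1.51 to -1.33) for the second. In the class sums the larger step of *Clec4e* came before Day 7 and that of *Clec4d* after it, and in macrophage-like cluster 2 the order for *Clec4e* was the opposite, with -0.68 (-1.36 to 0.10) and then -1.16 (-1.81 to -0.56). In neutrophil-like cells *Clec4d* was at 2398 CPM (2310 to 2488), 1466 (1402 to 1533) and 1525 (1095 to 2069). Within cluster 8 it went from 1909 to 1409 CPM between Days 3 and 7, a log2 ratio of -0.44 (-0.63 to -0.24), against -0.71 for the class. On Day 3 the log2 ratio of neutrophil-like over macrophage-like cells was 3.11 (3.06 to 3.17) for *Clec4e* and 2.93 (2.86 to 3.00) for *Clec4d*. With a class set for each cell from its own markers, without clusters, these were 1.74 and 1.499, and scaled by the median of ratios over genes they were 4.29 and 4.10.

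**Figure D1:**
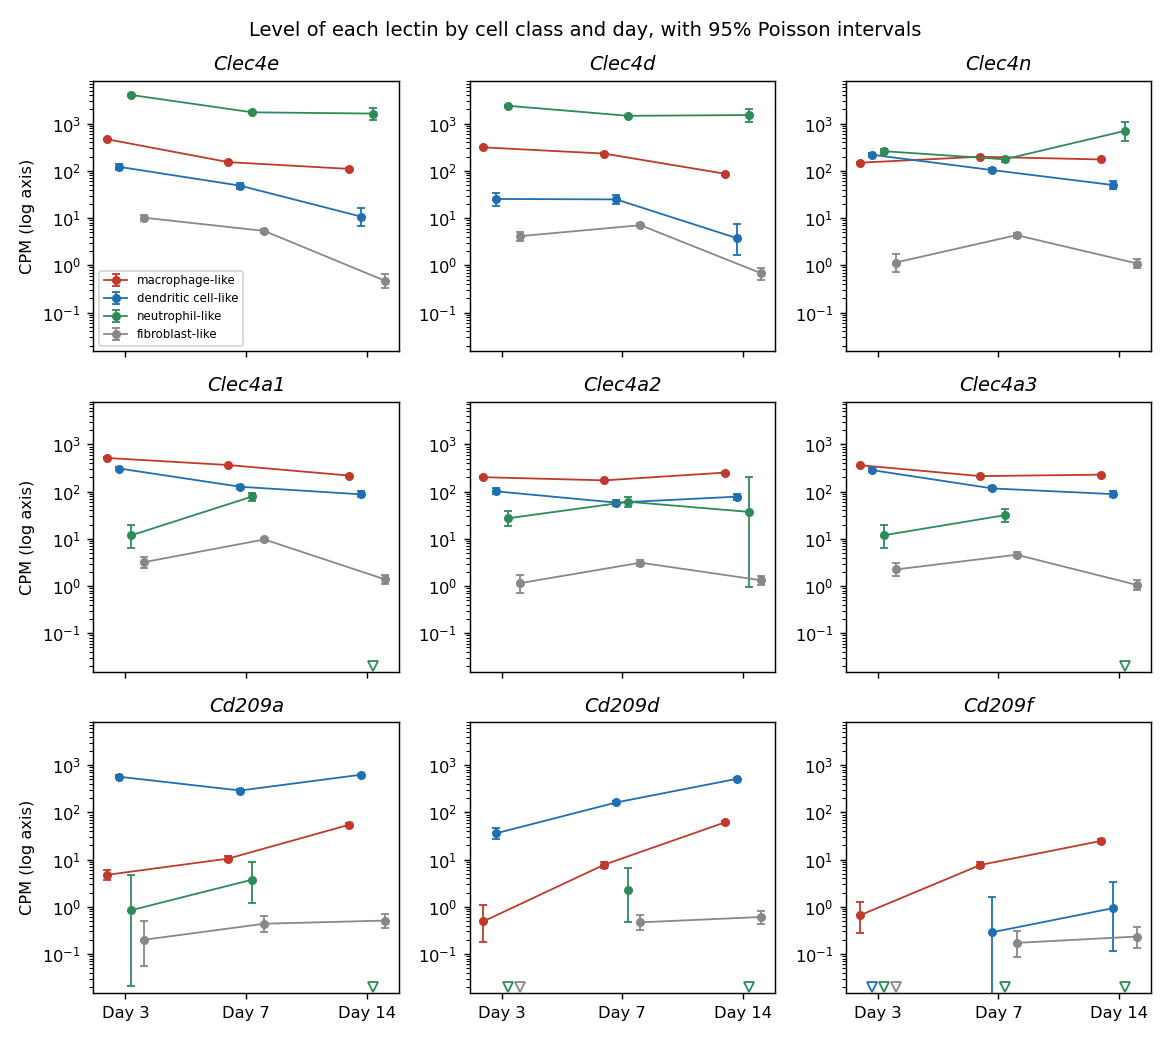
CPM (log axis) of each measured lectin on Days 3, 7 and 14 in 4 cell classes, with points for the class sums and bars for 95% Poisson intervals. Open triangles at the foot mark classes with 0 UMIs. The *Clec4e* and *Clec4d* points of neutrophil-like cells lie above those of the other 3 classes on each day, and the *Cd209a* and *Cd209d* points of dendritic cell-like cells do the same.

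*Clec4n* differed from its neighbours. In macrophage-like cells summed as a class it was at 149 CPM (142 to 156), 199.6 (194 to 205) and 174 (167 to 182). In dendritic cell-like cells it went from 220 CPM (198 to 244) through 104 (93.4 to 115) to 50.2 (41.1 to 60.6). In neutrophil-like cells it was at 262 (233 to 293), 176 (154 to 200) and 707 CPM (426 to 1104), the last from 19 UMIs. Between Days 3 and 7 the class log2 ratio was -0.57 (-0.82 to -0.32), against -1.23 (-1.65 to -0.79) within cluster 8, where it went from 431 to 184 CPM. In cluster 14 it went from 239.9 to 84.1 CPM, the latter from 9 UMIs. The direction from Day 7 to Day 14 in macrophage-like cells, a log2 ratio of -0.19 (-0.27 to -0.12), turned under 2 ways of assigning cells, to 0.066 at a coarser clustering and 0.14 with a class per cell. The neutrophil-like over macrophage-like ratio on Day 3, 0.81 (0.64 to 0.99), turned to -0.34 with a class per cell.

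The inhibitory receptor and its relatives lay mainly in macrophage-like cells, which held between 87.7% and 91.4% of the UMIs of *Clec4a1*, *Clec4a2* and *Clec4a3* in each library. *Clec4a1* went down in macrophage-like cells from 516 CPM (503 to 529) through 366 (359 to 373) to 219 (211 to 227). *Clec4a2*, the inhibitory DCIR, was at 202 CPM (194 to 210), 173 (168 to 178) and 253 (244 to 262). *Clec4a3* was at 363 CPM (352 to 374), 213 (208 to 219) and 229 (221 to 237). From Day 7 to Day 14 these neighbouring genes went different ways, with log2 ratios of -0.74 (-0.80 to -0.68), 0.55 (0.48 to 0.61) and 0.10 (0.04 to 0.17) in the same order. The Day 7 over Day 3 ratio of *Clec4a2*, -0.22 (-0.29 to -0.15), was 0.007 when CPM was scaled without the 50 most abundant genes, so no direction is drawn from it.

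In dendritic cell-like cells *Clec4a1* stood at 308, 127 and 87.7 CPM, *Clec4a2* at 102, 58.5 and 78.3 CPM, and *Clec4a3* at 286, 117 and 88.6 CPM. Each was below its macrophage-like level on every day. In neutrophil-like cells *Clec4a1* went from 11.9 CPM (6.504 to 19.96) on Day 3 to 79.0 (64.6 to 95.6) on Day 7. The 10 macrophage markers summed to 335 and 1377 CPM in the same cells, and the 8 fibroblast markers to 845 and 10210 CPM. Their part in the result was not tested.

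*Cd209a* and *Cd209d* were higher in dendritic cell-like than in macrophage-like or neutrophil-like cells on each day, and higher in macrophage-like cells on Day 14 than before. *Cd209a* was at 567 CPM (531 to 604) in dendritic cell-like cells of Day 3, 290 (272 to 309) in those of Day 7 and 627 (594 to 661) in those of Day 14. In macrophage-like cells it was at 4.75 CPM (3.61 to 6.14), 10.5 (9.28 to 11.8) and 54.5 (50.5 to 58.7). Its log2 ratios in macrophage-like cells were 1.14 (0.73 to 1.57) and 2.38 (2.18 to 2.58) for the successive steps, and they were 0.73 and 1.48 with each library clustered alone. In macrophage-like cells the dendritic cell markers, 11 in all and none at 0, summed to 388, 183 and 330 CPM in day order. Their sum thus went down over the first step, where *Cd209a* went up, and both went up over the second. The part of these markers in the result was not tested. Dendritic cell-like cells held 93.7%, 72.0% and 62.5% of the *Cd209a* UMIs in the Day 3, Day 7 and Day 14 libraries.

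*Cd209d* was higher at each later day in both classes. In dendritic cell-like cells it went from 35.7 CPM (27.2 to 46.1) through 162 (149 to 176) to 514 (484 to 545). In macrophage-like cells it went from 0.492 CPM (0.180 to 1.07), which is 6 UMIs, through 7.80 (6.78 to 8.93) to 61.5 (57.2 to 66.0). The log2 ratio of Day 14 over Day 7 was 1.66 (1.52 to 1.81) in dendritic cell-like cells and 2.98 (2.76 to 3.21) in macrophage-like cells, where it was 2.03 with each library clustered alone. On Day 14 dendritic cell-like cells held more than macrophage-like cells, by a log2 ratio of 3.06 (2.93 to 3.20) for *Cd209d* and 3.52 (3.39 to 3.66) for *Cd209a*.

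The dendritic cell-like values rested mainly on 1 cluster. Cluster 11, led by *Cd209a*, *Ffar2*, *Klrb1b* and *Klrd1*, held 76.4%, 70.4% and 81.0% of dendritic cell-like cells on Days 3, 7 and 14. At a coarser clustering 180 of its 181 Day 3 cells, 781 of its 783 Day 7 cells and all 388 of its Day 14 cells were left unnamed. With each library clustered alone 382 of the Day 14 cells were unnamed, and 27 of the Day 3 and 105 of the Day 7 cells were named macrophage-like. With a class per cell 72, 386 and 149 of the cells of Days 3, 7 and 14 were unnamed. At a finer clustering 112 of the 388 Day 14 cells and 40 of the 783 Day 7 cells were named macrophage-like. With a limit of 20% mitochondrial UMIs 106 and 47 were. The other dendritic cell-like cluster was cluster 20, led by *Ccl22*, with *Ccr7*, a gene of mature dendritic cells, among its leading genes. At the coarser clustering the Day 14 ratio over macrophage-like cells turned to -1.92 for *Cd209a* and -2.13 for *Cd209d*. With each library clustered alone they turned to -2.97 and -0.97. Over the 11 alternatives the Day 14 over Day 7 log2 ratio in macrophage-like cells ran from 1.48 to 2.89 for *Cd209a*. That of *Cd209d* ran from 2.03 to 3.38.

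Most *Cd209f* UMIs lay in macrophage-like cells, at a low level. In macrophage-like cells of the 3 libraries it was at 0.656 CPM (0.283 to 1.29), 7.69 (6.67 to 8.81) and 24.9 (22.2 to 27.8), resting on 8, 207 and 313 UMIs. Dendritic cell-like cells held 0, 1 and 2 UMIs of it, and the 0 of Day 3 allows up to 1.82 CPM, taken here as the level of 3 UMIs. No *Cd209f* UMI was found in neutrophil-like cells, which by the same limit allows up to 2.55 CPM on Day 3 and 2.26 on Day 7. With 21 cells on Day 14 it allows up to 112 CPM, above the macrophage-like level that day. The Day 3 limits of 1.82 and 2.55 CPM were also above the macrophage-like level, whose 8 UMIs lay in 3 cells.

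**Figure D2:**
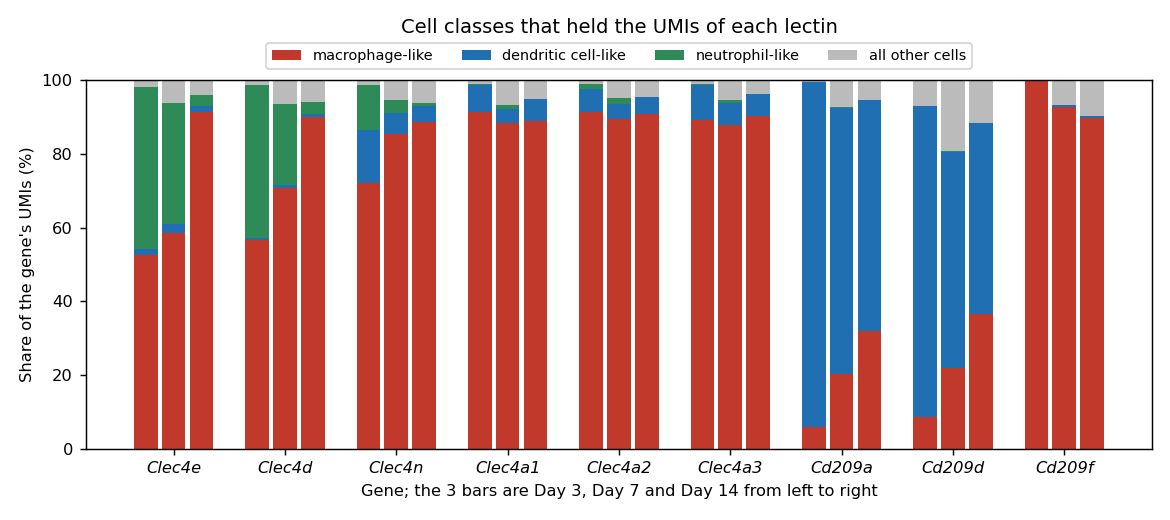
Share of each lectin's UMIs (%) found in macrophage-like, dendritic cell-like, neutrophil-like and all other cells, with 1 bar for each of Days 3, 7 and 14. The neutrophil-like share of *Clec4e* went from 43.8% through 32.8% to 2.90%, and the macrophage-like share of *Cd209a* from 5.81% through 20.3% to 32.1%. A share also depends on how many cells a class held. Neutrophil-like cells were 19.8%, 8.44% and 0.155% of all cells on these days.

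The share of cells with a UMI was taken after thinning each cell to 500 UMIs. On Day 14, 1.97% (1.52 to 2.50%) of macrophage-like cells had a *Cd209a* UMI, against 0.0270% of fibroblast-like and 0.631% (0.0765 to 2.26%) of T cell-like cells, which should lack the gene. Without thinning 6.91%, 0.473% and 2.52% had one, and the median cell held 3542.5, 9635.5 and 1854 UMIs. For *Cd209d* the thinned shares were 2.18%, 0.0405% and 0.946% (0.196 to 2.74%). The T cell-like intervals of both genes reached above the macrophage-like shares, so these Day 14 shares do not separate the classes. On Day 7 the macrophage-like shares of *Cd209a* and *Cd209d*, 0.420% and 0.210%, were not above the T cell-like shares of 0.522% (0.0633 to 1.87%) and 0.261% (0.00661 to 1.45%), and no expression is read from these Day 7 shares. The fibroblast-like shares that day were 0% and 0.0333%. The Day 7 level of *Cd209a* was uneven over macrophage-like clusters, at 86.0 CPM (65.7 to 110) in cluster 23 and 1.61 CPM (0.881 to 2.70) in cluster 0. The T cell-like level of *Cd209d* on Day 14, 62.0 CPM (44.9 to 83.5), was beside 61.5 CPM in macrophage-like cells. Its 43 T cell-like UMIs lay in 8 of 317 cells, and its 774 macrophage-like UMIs in 235 of 3256 cells. On Day 7 *Cd209d* was at 4.22 CPM (0.870 to 12.3) in T cell-like cells, with its 3 UMIs in 1 of 383 cells. The intervals treat UMIs as independent and do not cover this unevenness between cells. *Cd209a* was at 21.1 CPM (11.8 to 34.8) in T cell-like cells on Day 7, against 10.5 in macrophage-like cells, and at 36.1 CPM (23.3 to 53.2) on Day 14. For *Cd209f* the thinned share on Day 14 was 0.983% (0.673 to 1.39%) in macrophage-like cells. It was 0.631% (0.0765 to 2.26%) in T cell-like cells, an interval that spans the macrophage-like one.

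For *Clec4e*, 69.8% of neutrophil-like and 17.2% of macrophage-like cells had a UMI on Day 3 after thinning, against 0.721% of fibroblast-like cells. Without thinning 85.9%, 53.4% and 20.9% had one, and the median cell held 1230, 4058.5 and 44069.5 UMIs. For *Clec4d* the thinned shares were 65.7%, 14.1% and 0%.

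The members were then set against all genes, by ratios of at least 2 in macrophage-like cells. Genes with a mean of at least 5 CPM over the 2 sums were counted, and a gene with 0 UMIs entered at 3. From Day 3 to Day 7, 7 members passed this limit, 1 of them (*Cd209a*) at least 2-fold higher and 1 (*Clec4e*) at least 2-fold lower, where 3.74% and 4.91% of all 8736 genes were. The log2 ratio of *Cd209a* was 0.52 with a class per cell, under a ratio of 2. It rests on the Day 7 level, for which the share of cells with a UMI was not above that of T cell-like cells. *Cd209d* and *Cd209f* missed the limit and had log2 ratios of 3.99 (2.84 to 5.45) and 3.55 (2.55 to 4.78). The lowest *Cd209d* ratio under the alternatives was 2.62, and its Day 7 share of cells was not above the T cell-like share either. From Day 7 to Day 14 all 9 passed, with the 3 *Cd209* genes at least 2-fold higher and *Clec4d* at least 2-fold lower, where 2.93% and 3.86% of all 8805 genes were. The median log2 ratio was -0.44 over members and -0.09 over all genes for the first step, and 0.10 and -0.12 for the second. The members were selected on these levels, so the counts are a description.

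Between classes on Day 14, 2 of 9 members were at least 2-fold higher in dendritic cell-like than in macrophage-like cells (6.76% of all genes) and 7 were at least 2-fold lower (15.4% of all genes). Between neutrophil-like and macrophage-like cells on Day 3, 2 of 6 members were at least 2-fold higher (12.9% of all genes) and 3 were at least 2-fold lower (55.0% of all genes). The median over all genes in that comparison was -1.22.

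The macrophage-like class was made of different clusters on each day, and the lectins differed between them. On Day 3, 51.1% of the class lay in cluster 0, led by *Arg1*, and 35.1% in cluster 5, led by the monocyte genes *Ly6c2* and *Chil3*. On Day 14, 43.2% lay in cluster 4, led by *Il10*, and 18.9% in cluster 12, led by *Retnla*. A cluster that 1 library dominates may stand for that library and not for a cell state.

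With all days summed, *Clec4d* was highest among macrophage-like clusters in cluster 0 at 426 CPM and *Clec4e* in cluster 5 at 498 CPM. *Clec4a2* was at 314 CPM in cluster 12, and on Day 3 it was at 388 CPM (311 to 479) in cluster 2. On Day 14 *Cd209a* was at 143 CPM (118 to 173) in cluster 23, led by cell cycle genes, at 112 CPM (101 to 124) in cluster 12 and at 109 CPM (80.9 to 143) in cluster 5. With all days summed *Cd209f* lay in clusters 6 and 4 at 35.6 and 32.0 CPM. In clusters 0, 2 and 12 it was at 0.273, 0.896 and 0.605 CPM. Clusters 5 and 23 held no UMI of it, which by the limit of 3 UMIs allows up to 0.349 and 1.94 CPM. Cluster 6 was led by *Fcna*, *Cd163* and *Lyve1*, genes of tissue-resident macrophages.

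**Figure D3:**
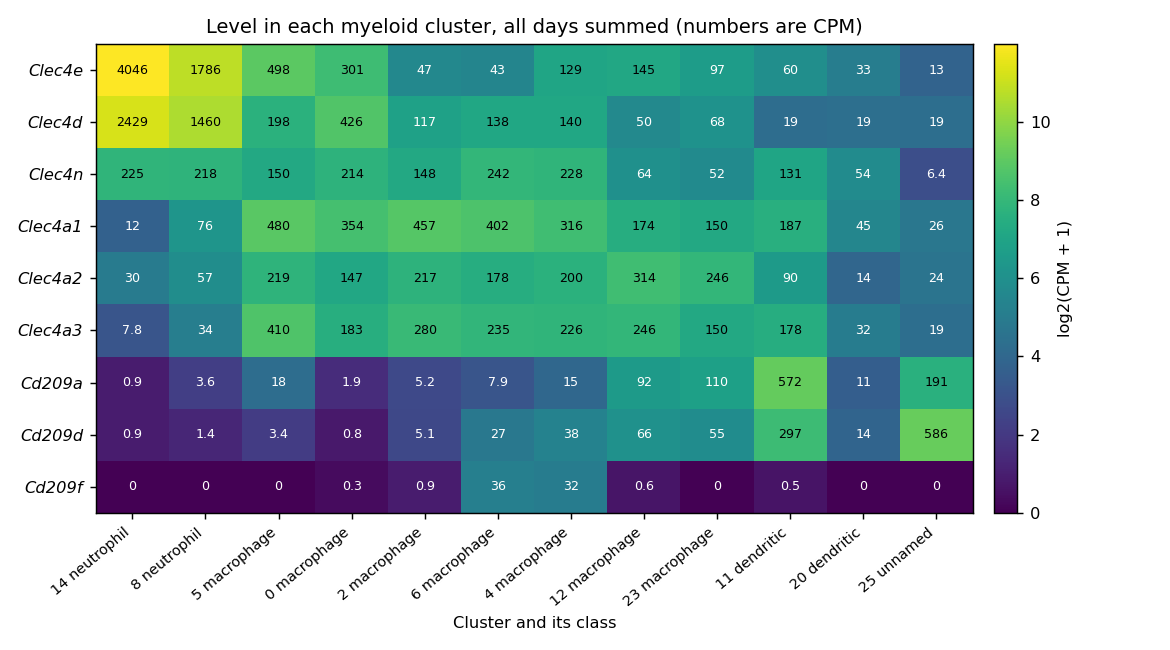
Level of each measured lectin in the myeloid clusters and in unnamed cluster 25, with all days summed and without unnamed cluster 29, which held 40 cells, coloured by log2(CPM + 1) and printed as CPM. *Clec4e* reached 4046 CPM in neutrophil-like cluster 14, *Cd209a* 572 CPM in dendritic cell-like cluster 11, and *Cd209f* 35.6 CPM in macrophage-like cluster 6.

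The 2 dendritic cell-like clusters differed too. *Cd209a* stood at 572 CPM in cluster 11 and at 11.03 CPM in cluster 20. *Cd209d* stood at 297 and 13.6 CPM. *Clec4a2* stood at 90.4 and 14.3 CPM.

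The changes between days were computed again inside each macrophage-like cluster with at least 100 cells of both days. From Day 7 to Day 14, *Cd209a* was higher in 6 of 6 clusters and *Cd209d* in 5 of 6, with intervals above 0. Over all 6 clusters their log2 ratios ran from 0.74 to 2.42 and from 0.28 to 4.45. *Cd209f* was higher beyond counting error in 2 of 6, cluster 4 at 1.24 (0.79 to 1.71) and cluster 6 at 0.95 (0.58 to 1.33), both below the class value of 1.69, and 2 of the 6 clusters held no UMI of it on either day. *Clec4e* was lower beyond counting error in 4 of 6, and over all 6 its ratios ran from -1.16 to -0.05. *Clec4d* was lower in 6 of 6, from -2.17 to -0.37, and *Clec4a1* in 6 of 6, from -1.08 to -0.44. *Clec4a2* was higher beyond counting error in 4 of 6, and over all 6 its ratios ran from 0.10 to 0.90. *Clec4n* was higher in 1, cluster 4, at 0.26 (0.12 to 0.41), and lower in 2, cluster 12 at -0.86 (-1.19 to -0.53) and cluster 23 at -1.54 (-2.34 to -0.80). *Clec4a3* was neither higher nor lower in any of the 6 beyond counting error.

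From Day 3 to Day 7, 4 clusters could be compared. *Clec4a1* was lower beyond counting error in 4 of 4, from -0.87 to -0.37, and *Clec4a3* in 4 of 4, from -1.18 to -0.64. *Cd209a* was higher in 2 of 4 beyond counting error, in cluster 5 at 2.01 (1.38 to 2.67) and in cluster 6, where it went from 0 to 24 UMIs. In clusters 0 and 2 its log2 ratios were -0.62 (-1.80 to 0.56) and -1.26 (-3.30 to 1.88). *Cd209d* was also higher in 2 of 4, and its lowest ratio was -1.997 (-5.04 to 3.53), in cluster 2. *Clec4e* was lower in 3 of 4, from -1.42 to -0.44, and its class value of -1.61 was below each of the 4. *Clec4n* was higher in 3 of 4, from 0.24 to 1.19. *Clec4a2* was lower beyond counting error in 3 of 4, and over all 4 its ratios ran from -0.94 to -0.11. *Clec4d* was lower in 1 cluster, cluster 0, at -0.19 (-0.26 to -0.12). It was higher in 1, cluster 6, at 0.43 (0.16 to 0.71), where it went from 125 to 168 CPM. These cluster ratios were not run again under other scalings. The class value of -0.44 for *Clec4d* was below each of the 4 cluster values, which ran from -0.19 to 0.43.

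**Figure D4:**
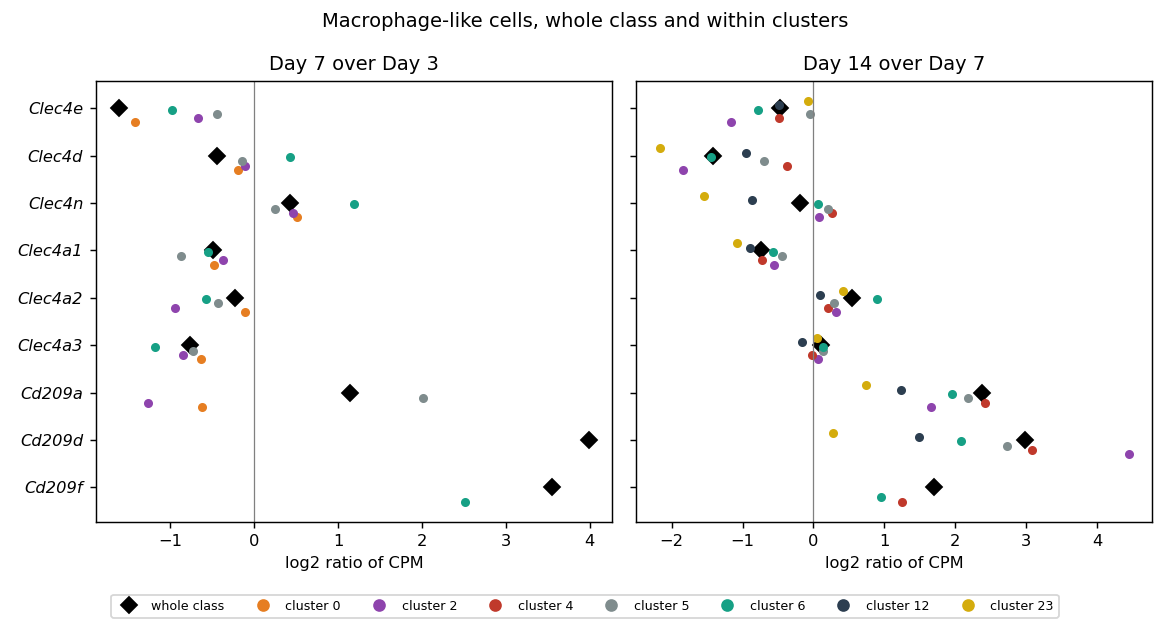
Log2 ratio of CPM between days in macrophage-like cells, for the whole class (black diamonds) and within clusters (coloured circles, shown where both days together hold at least 20 UMIs). For Day 14 over Day 7 the *Cd209a* circles lie between 0.74 and 2.42 and the *Clec4d* circles between -2.17 and -0.37.

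Some lectins were detected in the same cells. Cells were thinned to 1000 UMIs for this, which left out 223, 846 and 225 macrophage-like cells on Days 3, 7 and 14. On Day 14, 34.1% (24.4 to 44.8%) of macrophage-like cells with *Cd209a* also had *Cd209d*, against 2.18% (1.68 to 2.77%) of those without. In dendritic cell-like cells the shares were 47.1% (38.4 to 55.8%) and 14.6% (10.9 to 18.9%). On Day 7, *Clec4d* was found in 26.2% (23.5 to 28.9%) of macrophage-like cells with *Clec4e* and in 16.6% (15.8 to 17.5%) of those without. Not every pair went together. On Day 14, *Clec4e* was found in 2.20% (0.267 to 7.715%) of macrophage-like cells with *Cd209a* and in 7.96% (7.01 to 8.997%) of those without. The shares pool clusters that differ in these levels, and the part of this was not tested.

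The genes with the most similar pattern were named over 20 sums of a class in a library, as Pearson correlations of log2(CPM + 1) among genes that reached 50 CPM. The sums share libraries, so the correlations are a description. *Clec4e* was most like *Ccl3* (r = 0.983), *Csf3r* (0.978) and *Osm* (0.974), and *Clec4d* most like *Csf3r* (0.965), *Atg7* (0.962) and *Ccl3*. *Clec4n* was most like *Pirb*, *Itgam* and *Ptafr* (0.979, 0.979 and 0.978). *Clec4a1* and *Clec4a3* shared *Ms4a6d*, *Ctss* and *Ms4a6c*, with r between 0.968 and 0.984, and *Clec4a2* was most like *Clec12a* (0.982), *Pou2f2* (0.963) and *Cybb* (0.962). *Cd209a* was most like *H2-DMb2* (0.975), *H2-Ob* (0.942) and *Kmo* (0.923), *Cd209d* like *Mgl2* (0.905), *H2-Ob* (0.885) and *Cd209e* (0.874), and *Cd209f* like *Retnla* (0.831), *Gpr34* (0.711) and *Lyz1* (0.709). *Retnla* and *Lyz1* were leading genes of cluster 12, where *Cd209f* was at 0.605 CPM with all days summed, against 35.6 CPM in cluster 6. The likeness of *Cd209f* to these genes in class sums thus did not carry over to that cluster. *H2-DMb2* and *Kmo* were among the markers that named dendritic cell-like clusters, and *Csf3r* was among those that named neutrophil-like clusters.

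The signalling partners of the receptors were counted in the same way. Of 18 adaptor, kinase and phosphatase genes, 17 passed the limit from Day 3 to Day 7, with 0 at least 2-fold higher and 2 at least 2-fold lower, beside 3.74% and 4.91% of all genes, and a median log2 ratio of -0.29. *Card9* went from 19.5 to 4.57 CPM, a log2 ratio of -2.10 (-2.42 to -1.78), and *Prkcd* from 342 to 123 CPM, at -1.47 (-1.54 to -1.41). From Day 7 to Day 14, 16 passed, with 1 at least 2-fold higher and 0 lower, beside 2.93% and 3.86% of all genes. That gene was *Rel*, a subunit of NF-kB, which went from 267 to 626 CPM, at 1.23 (1.18 to 1.28).

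Of 34 other C-type lectin-like genes measured, 14 passed from Day 3 to Day 7, with 4 at least 2-fold higher and 4 lower, beside 3.74% and 4.91% of all genes. From Day 7 to Day 14, 17 passed, with 5 higher and 2 lower, beside 2.93% and 3.86% of all genes. *Mgl2*, a galactose-binding lectin, went up in macrophage-like cells from 11.5 through 60.4 to 415 CPM, and *Clec4b1*, a neighbour of the *Clec4a* genes, from 11.97 through 39.8 to 208 CPM. *Clec10a* went from 95.7 to 219 CPM after Day 7, *Cd209b* from 2.34 to 9.53 and *Klrk1* from 5.16 to 18.2. *Olr1* went from 106 to 22.4 CPM and *Clec2d* from 138 to 60.4 CPM before Day 7. *Cd69* went from 42.9 through 19.3 to 9.30 CPM. *Clec3b* went from 0.246 CPM, which is 3 UMIs, to 13.1 CPM on Day 7, a log2 ratio of 5.74 (4.18 to 8.02). *Colec12* went from 4.999 to 14.9 CPM. The 8 fibroblast markers in the same cells went from 417 to 3800 CPM, and their part in these results was not tested.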

How the data were processed

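Cells of mouse skin wounds were profiled with 10x Genomics 3′ v3.1 chemistry, 1 library per day, each pooled over wounds. The authors deposited raw UMI counts per gene and barcode, made with Cell Ranger 6.0.0 on mm10 per the submitters' processing notes; the annotation release is not given in the sources used here. Members were found by Ensembl ID, and 32158 of 32285 genes had a symbol. Because each molecule is counted once at its 3′ end, counts do not scale with transcript length.

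Barcodes under 200 genes, under 500 UMIs or over 10% mitochondrial UMIs were dropped, and 73, 1922 and 912 called doublets were removed on Days 3, 7 and 14. The 3 libraries were clustered together without alignment (2000 variable genes, 30 components, 15 neighbours, Leiden resolution 1) in Python 3.11.15 with scikit-learn 1.9.0 and igraph 0.11.9. From clustering, 172 genes were barred, namely the lectin and signalling lists, mitochondrial and ribosomal protein genes and *Gm42418*. *Gm42418* held 3.60%, 11.7% and 6.42% of the UMIs of the Day 3, 7 and 14 libraries, and it stayed in the CPM totals. Clusters were named from marker lists that hold no member. Free RNA was not subtracted.

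UMIs were summed per class and library. A member was counted as changed at a CPM ratio of at least 2 with a mean of at least 5 CPM, and a sum with 0 UMIs entered at 3. Intervals were computed at 95% with scipy 1.17.1. In simulated Poisson counts for macrophage-like cells they covered 94.0% of 200 changed genes and 95.7% of unchanged genes among 8804 for Day 7 over Day 3, and 94.0% and 95.2% among 8846 for Day 14 over Day 7. The simulation left out variation from cell to cell and between libraries. Named genes were the members, a list of other lectins and a list of signalling genes (those with a ratio of at least 2 between adjacent days), and the 3 genes most like each member. The values of 1 gene of the other lectins are not reported here. The members, lists, markers and motifs were chosen with earlier results of these data known. Alternatives in scaling, filters, doublets, clustering and limits were run.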

Additional observations from a re-analysis of the deposited data

How the results depend on the processing

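No paired analysis was possible because each day had 1 library, and no library could be left out for the same reason. The alternatives covered 36 member log2 ratios. These were both macrophage-like steps, dendritic cell-like over macrophage-like cells on Day 14 and neutrophil-like over macrophage-like cells on Day 3. Under 11 alternatives, 8 values of these ratios turned direction, and the other values of ratios with a direction kept it. Ratios between days in dendritic cell-like and neutrophil-like cells, and those within clusters, were not run again. The neutrophil-like over macrophage-like ratios of *Cd209d* and *Cd209f* had no direction as reported and are not counted. *Clec4a2* for Day 7 over Day 3 was 0.007 without the 50 most abundant genes, *Clec4n* for Day 14 over Day 7 was 0.066 at resolution 0.5 and 0.14 with a class per cell, and *Clec4n* in neutrophil-like over macrophage-like cells was -0.34 with a class per cell. For dendritic cell-like over macrophage-like cells on Day 14, *Cd209a* was -1.92 and *Cd209d* -2.13 at resolution 0.5, and -2.97 and -0.97 with each library clustered alone, where cluster 11 was unnamed. Of 112 recounts of members, 98 stayed within 1.5 times. The count at least 2-fold higher in macrophage-like cells for Day 7 over Day 3, 1 as reported, was 3 without the 50 most abundant genes or with no limit on CPM, 2 at 20% mitochondrial UMIs, and 0 with the mean CPM of each cell, a class per cell, a mean of 50 CPM or a ratio of 4. At a ratio of 4 the count lower was 0 for both steps, and at a mean of 50 CPM the count higher for Day 14 over Day 7 was 0. The dendritic cell-like count higher was 0 at resolution 0.5 and with libraries alone and 1 with a class per cell, and the count lower was 3 at a ratio of 4. Apart from the clusterings named, the causes were not tested.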

Other observations

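Lectin levels were computed for 2 of the clusters left without a class. Cluster 25, 135 cells led by *Siglech*, *Ccr9* and *Klk1*, held *Cd209d* at 586 CPM (519 to 660) and *Cd209a* at 191 CPM (154 to 235), and no *Cd209f* UMI. Its other members were low, with *Clec4a1* at 25.8 CPM and *Clec4n* at 6.44 CPM. In dendritic cell-like cluster 11 *Cd209d* was lower than in cluster 25, at 297 CPM, and *Cd209a* higher, at 572 CPM. All days were summed in both clusters. *Siglech* is known from plasmacytoid dendritic cells. Cluster 29, 40 cells led by *Cd207*, the gene of langerin in Langerhans cells, held *Clec4n* at 157 CPM (107 to 223) from 31 UMIs and no UMI of *Cd209a*, *Cd209d* or *Cd209f*, which allows up to 15.2 CPM at the limit of 3 UMIs.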
